A study of Mus musculus with 16 samples.

Results

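The insulin-like growth factor (IGF) group described here held 10 genes of the deposited count table: the ligand Igf1, its receptor Igf1r, the binding proteins Igfbp3, Igfbp4, Igfbp5, Igfbp6 and Igfbp7, the receptor adaptors Irs1 and Irs2, and the kinase Akt2. They were chosen by name, through the Ensembl identifiers of the GENCODE annotation of GRCm38, the build used for all coordinates, and all are protein coding. The rule used no measured value, although the group was picked with earlier results of these data known. All 10 were among the 29730 genes of the table and among the 14960 genes that passed the filter on low counts. RNA sequencing had been performed on the tibialis anterior, the muscle at the front of the shin, from 16 male mice aged 7 weeks, with C57BL/6N as the labelled strain of every mouse. Wild-type (WT) mice received phosphate-buffered saline (WT_PBS, 4 mice) or the antisense oligonucleotide ASO1 (WT_ASO, 4 mice), and Bin1mck-/- knockout mice received saline (KO_PBS, 4 mice) or ASO1 (KO_ASO, 4 mice). ASO1 is directed at Dnm2, which encodes the membrane-severing GTPase dynamin 2, and Bin1 encodes the membrane-bending protein amphiphysin 2. The dose, the schedule and what drives the deletion were not given in the sources used here.

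As background, IGF1 made by the liver and by muscle itself binds the IGF1 receptor on the fibre and, through the insulin receptor substrates IRS1 and IRS2, recruits phosphoinositide 3-kinase and the kinases AKT1 and AKT2. This route promotes protein synthesis through mTOR, glucose uptake through the transporter GLUT4 and retention of FOXO factors in the cytoplasm, and it is known for fibre growth. Most IGF outside cells is held by IGF binding proteins, which can limit or prolong its access to the receptor. IGFBP6 prefers IGF2 and IGFBP7 binds IGFs weakly.

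Upstream sequences are shown for Igfbp4, Igfbp6 and Irs1, the 3 members nearest to the threshold in the knockout comparison. Each is the 250 bases before the RefSeq start (GRCm38.p6), written 5′ to 3′ on the gene's strand, with capitals marking a TATA box (TATAAA) or a GC box (GGGCGG) on either strand. The windows lie at chr11:99040994-99041243 (plus strand) for Igfbp4, chr15:102143936-102144185 (plus strand) for Igfbp6 and chr1:82291440-82291689 (minus strand) for Irs1.
Igfbp4: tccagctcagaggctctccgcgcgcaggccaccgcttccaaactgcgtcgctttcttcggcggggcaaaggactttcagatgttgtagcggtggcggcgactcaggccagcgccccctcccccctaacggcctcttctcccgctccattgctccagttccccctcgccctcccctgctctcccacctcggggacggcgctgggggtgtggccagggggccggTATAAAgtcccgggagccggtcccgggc
Igfbp6: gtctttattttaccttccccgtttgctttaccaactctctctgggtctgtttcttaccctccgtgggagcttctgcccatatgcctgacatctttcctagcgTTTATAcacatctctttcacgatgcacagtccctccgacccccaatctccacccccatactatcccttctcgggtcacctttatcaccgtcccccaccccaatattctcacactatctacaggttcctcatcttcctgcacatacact
Irs1: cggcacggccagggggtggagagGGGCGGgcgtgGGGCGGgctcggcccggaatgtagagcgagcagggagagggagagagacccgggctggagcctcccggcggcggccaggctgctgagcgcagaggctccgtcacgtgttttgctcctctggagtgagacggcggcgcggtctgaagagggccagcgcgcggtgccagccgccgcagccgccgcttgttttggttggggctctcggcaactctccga
Igfbp4 and Igfbp6 each held 1 TATA box, in Igfbp6 on the opposite strand, and Irs1 held 2 GC boxes. Of all 32851 windows of this length, 12.4% held the TATA box and 32.7% the GC box. GC content was 69.2% for Igfbp4, 49.6% for Igfbp6 and 72.4% for Irs1, against a median of 52.4% over all windows. The FOXO motif GTAAACA, on either strand, was in 3.17% of all windows and in 0 of the 10 members' windows. These matches describe letters and not binding.

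Library totals ran from 27591900 to 40862854 counts, and a member held between 289 counts (Igf1) and 21092 counts (Igfbp5) in a sample. Bin1 measured 463 to 554 CPM (a count divided by the scaled library total) in WT_PBS and 40.8 to 47.7 CPM in KO_PBS, and Dnm2 measured 50.2 to 62.8 CPM in WT_PBS, 59.1 to 67.7 CPM in KO_PBS, 23.1 to 29.4 CPM in WT_ASO and 20.7 to 31.1 CPM in KO_ASO. Both genes overlap a gene on the opposite strand. The 8 myofibre marker genes, which bear out the muscle label, summed to 149000 to 185000 CPM in WT_PBS, 153000 to 216000 CPM in WT_ASO, 126000 to 136000 CPM in KO_PBS and 132000 to 155000 CPM in KO_ASO, so that KO_PBS lay below WT_PBS without overlap. Of these 8 genes 6 had a negative and 2 a positive log2 fold change in KO_PBS vs WT_PBS, and 1 passed, as lower (Tnnt3). The mean of Myh1 was 15200 CPM in WT_PBS and 19300 CPM in KO_PBS, and that of Myh2 was 1540 and 2160 CPM. The 6 markers of satellite cells and new fibres summed to 33.7 to 38.2 CPM in WT_PBS, 31.1 to 41.7 CPM in WT_ASO, 51.2 to 71.7 CPM in KO_PBS and 41.6 to 64.6 CPM in KO_ASO. In KO_PBS vs WT_PBS, Myog and Myh8 passed as higher and Pax7 and Myf5 as lower. The part of these shifts in the KO_PBS values of Irs1, Akt2 and Slc2a4 given with each gene was not tested. In whole muscle, fewer cells of a type and less RNA per cell cannot be told apart.

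To compare the members with each other, CPM was divided by the length of each gene's merged exons. In WT_PBS, Igfbp5 had the highest level at 74.2 ± 10 CPM per kilobase (SD, n = 4). Igfbp7 followed at 33.7 ± 2.65, Akt2 at 18 ± 0.392, Igfbp6 at 13.0 ± 1.74 and Irs1 at 12.1 ± 5.3 CPM per kilobase (SD, n = 4). Igfbp4 measured 5.7 ± 0.64, Igfbp3 5.1 ± 0.57, Irs2 3.17 ± 0.584, Igf1 2.48 ± 1.35 and Igf1r 1.04 ± 0.0879 CPM per kilobase (SD, n = 4). The sample ranges overlapped between the neighbours Igfbp6 and Irs1, Irs1 and Igfbp4, Igfbp4 and Igfbp3, and Irs2 and Igf1, so that their order was not resolved. The second ligand gene, Igf2, was near the lower limit of detection at 0.0619 ± 0.0263 CPM per kilobase in WT_PBS (SD, n = 4), with 6 to 36 counts in each of the 16 samples. In KO_PBS, Igfbp6 at 21.7 ± 2.8 stood above Akt2 at 15.6 ± 1.58 CPM per kilobase (SD, n = 4), the reverse of their order in WT_PBS. That reversal depended on the length used: with the longest transcript, the KO_PBS mean of Akt2 (24.4) was above that of Igfbp6 (21.7 CPM per kilobase), with overlapping ranges. Igfbp5 had the highest and Igf1r the lowest mean in each of the 4 groups. The sample ranges of Igfbp5 and Igfbp7 overlapped in KO_PBS and KO_ASO, and those of Igf1 and Igf1r in WT_ASO, KO_PBS and KO_ASO, so that the first and last places were not resolved there.

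**Figure D1:**
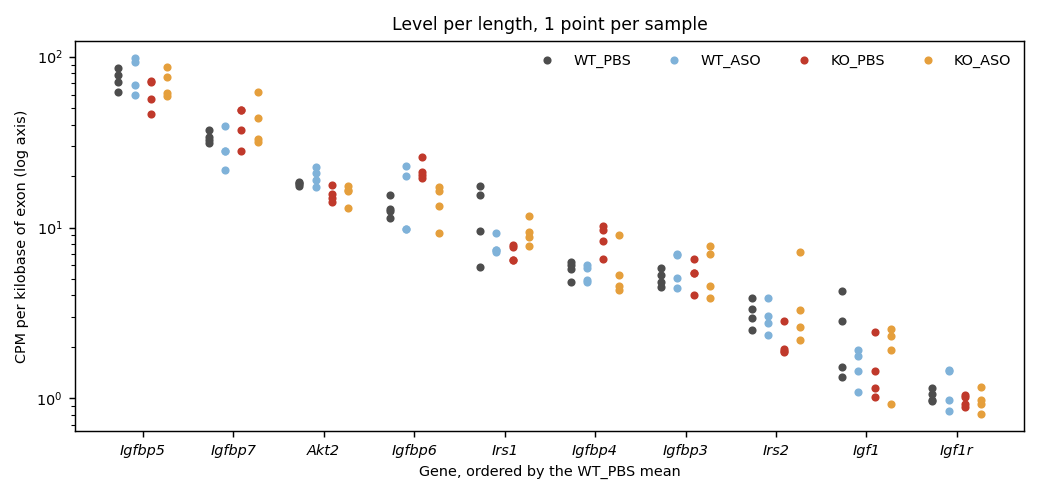
CPM per kilobase of exon (log axis) of the 10 genes, ordered by the WT_PBS mean, with 1 point per sample and colours for the 4 groups. Igfbp5 lies highest and Igf1r lowest in each group mean, and the points of neighbouring genes often overlap.

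To assess the effect of the knockout and of ASO1, each gene was tested in 6 contrasts fitted to all 16 samples: KO_PBS vs WT_PBS, KO_ASO vs KO_PBS, WT_ASO vs WT_PBS, KO_ASO vs WT_PBS, KO_ASO vs WT_ASO, and the interaction, which asks whether the ASO1 effect differs between the genotypes. The contrasts share samples: each group enters at least 3 of the 6. By edgeR with the main settings (all 16 samples, TMM scaling, filter on low counts), 0 of the 10 members passed an adjusted P value of 0.05 in any of them. Other edgeR settings, or leaving out 1 sample, called Igfbp4, Igfbp6 or Irs1 in some of them, as given with each gene. In KO_PBS vs WT_PBS, 12.6% of all tested genes passed (7.43% higher and 5.12% lower in KO_PBS). For KO_ASO vs KO_PBS this share was 3.64% (0.802% higher and 2.83% lower in KO_ASO). It was 0.00668% for WT_ASO vs WT_PBS, 0.0401% for KO_ASO vs WT_PBS, 0.0735% for KO_ASO vs WT_ASO and 0.575% for the interaction. With library totals as the only scaling, the calls split into 1942 higher and 260 lower in KO_PBS vs WT_PBS (1112 and 766 with the main scaling), 63 and 697 in KO_ASO vs KO_PBS (120 and 424), and 14 and 2 in KO_ASO vs WT_ASO (6 and 5).

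At an unadjusted P value under 0.05, 3 members (Igfbp4, Igfbp6, Irs1) passed in KO_PBS vs WT_PBS against 27.3% of all genes, and 3 (Igfbp4, Igfbp6, Irs2) in KO_ASO vs KO_PBS against 17.7%. For WT_ASO vs WT_PBS it was 1 (Irs1) against 6.45%, for KO_ASO vs WT_PBS 0 against 8.22%, for KO_ASO vs WT_ASO 2 (Igfbp7, Akt2) against 15.1%, and for the interaction 3 (Igfbp6, Irs1, Irs2) against 12.7%. DESeq2 called 3 members in KO_PBS vs WT_PBS (Igfbp4, Igfbp6, Irs1), where it called 16.9% of all genes. It called 0 members in the other contrasts, where it called 7.06% of genes for KO_ASO vs KO_PBS, 0.221% for WT_ASO vs WT_PBS, 0.635% for KO_ASO vs WT_PBS, 2.82% for KO_ASO vs WT_ASO and 2.57% for the interaction. The 4 samples of each group did not overlap in CPM for 2 members in KO_PBS vs WT_PBS (20.4% of all genes), 1 in KO_ASO vs KO_PBS (10.4%), 0 in WT_ASO vs WT_PBS (3.22%), 1 in KO_ASO vs WT_PBS (5.39%) and 0 in KO_ASO vs WT_ASO (6.97%). In KO_PBS vs WT_PBS the log2 fold changes (log2FC) of the members ran from -0.76 to 0.73 with a median of -0.15, beside a median of -0.011 over all tested genes. In KO_ASO vs KO_PBS they ran from -0.63 to 0.83 with a median of 0.088, beside 0.010 over all tested genes.

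**Figure D2:**
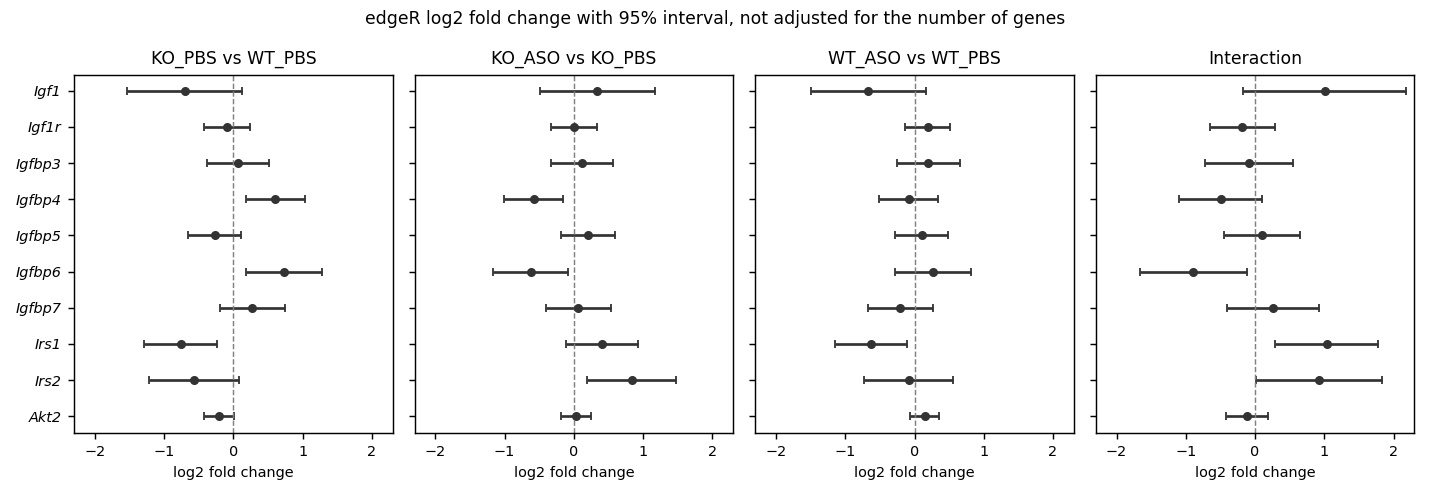
edgeR log2 fold changes of the 10 genes (points) with 95% intervals (bars, not adjusted for the number of genes) in KO_PBS vs WT_PBS, KO_ASO vs KO_PBS, WT_ASO vs WT_PBS and the interaction. In KO_PBS vs WT_PBS the intervals of Igfbp4, Igfbp6 and Irs1 leave out 0, yet none of the 3 passed after adjustment.

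Among the binding proteins, Igfbp4 (ENSMUSG00000017493, chromosome 11, 99041244 to 99054392, plus strand), which holds IGFs and is cleaved by the protease PAPP-A, measured 21.2, 27.7, 26.5 and 25.3 CPM in WT_PBS 1 to 4 and 42.4, 28.8, 36.8 and 44.9 CPM in KO_PBS 1 to 4. Its values were 21.7, 21.3, 25.6 and 26.6 CPM in WT_ASO and 19.1, 20.01, 23.2 and 40.1 CPM in KO_ASO. Each KO_PBS sample lay above each WT_PBS sample, and 3 of the 4 KO_ASO samples lay within or below the WT_PBS range, KO_ASO 4 being the exception. The log2FC in KO_PBS vs WT_PBS was 0.60 (SE 0.199, 95% interval 0.18 to 1.03, edgeR adjusted P value 0.0585), a ratio of 1.52. DESeq2 gave an adjusted P value of 0.0267 for it. In KO_ASO vs KO_PBS the log2FC was -0.58 (SE 0.2, 95% interval -1.0045 to -0.16, edgeR adjusted P value 0.126). Without KO_ASO 4 this became -0.88 with an edgeR adjusted P value of 0.00354, and the knockout comparison then passed at 0.00628. The knockout comparison also passed without KO_PBS 2 (edgeR adjusted P value 0.0343) and without KO_ASO 1 (0.0492). KO_ASO 1 and KO_ASO 4 belong to neither group of the knockout comparison. Leaving one out changed the shared estimate of spread and the number of genes tested (15116 and 15203 in place of 14960). It passed edgeR with library totals as the only scaling (log2FC 0.76, adjusted P value 0.0232) and on the compared groups alone (0.0184) as well.

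Igfbp6 (ENSMUSG00000023046, chromosome 15, 102144362 to 102149511, plus strand), the binding protein with a preference for IGF2, measured 14.0, 14.3, 17.2 and 12.6 CPM in WT_PBS and 21.8, 23.4, 22.4 and 28.65 CPM in KO_PBS. KO_ASO samples measured 10.3, 14.8, 18.2 and 19.2 CPM, each below all 4 KO_PBS samples. WT_ASO samples divided into 10.8 and 10.9 CPM in samples 1 and 2 and 25.6 and 22.3 CPM in samples 3 and 4. The first pair lay below the WT_PBS range of 12.6 to 17.2 CPM, and the second pair lay above it. The log2FC was 0.73 in KO_PBS vs WT_PBS (SE 0.256, 95% interval 0.19 to 1.28, edgeR adjusted P value 0.0725) and -0.63 in KO_ASO vs KO_PBS (SE 0.256, 95% interval -1.17 to -0.08, edgeR adjusted P value 0.203). DESeq2 gave 0.0316 for the former. The knockout comparison passed edgeR on leaving out WT_ASO 1 (adjusted P value 0.0494), WT_ASO 2 (0.0498) or WT_ASO 3 (0.0474). It passed too with library totals as the only scaling (log2FC 0.88, edgeR adjusted P value 0.0325) and on the compared groups alone (0.00388). WT_ASO 1, 2 and 3 belong to neither group compared. Leaving one out changed both the shared estimate of spread and the number of genes tested (15243, 15112 and 15114 in place of 14960). On leaving out 1 sample, the knockout comparison passed in 3 of 16 cases, with adjusted P values up to 0.176. Under other settings these values ran up to 0.197. The interaction was -0.89 (SE 0.362, 95% interval -1.66 to -0.12, edgeR adjusted P value 0.313).

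Markers of connective tissue and of macrophages also had their highest group mean in KO_PBS. The sum of 9 stromal fibroblast genes was 1070 to 1410 CPM in WT_PBS, 1370 to 2370 CPM in KO_PBS, 478 to 2010 CPM in WT_ASO and 559 to 1880 CPM in KO_ASO. Of these 9 genes, 4 passed as higher in KO_PBS vs WT_PBS (Pdgfra, Dcn, Dpt, Pi16) and 1 as lower in KO_ASO vs KO_PBS (Dcn). In WT_ASO the stromal sum was 478 and 894 CPM in samples 1 and 2 and 1740 and 2010 CPM in samples 3 and 4, the samples with low and high Igfbp6. The macrophage sum divided WT_ASO in the same way, at 52.4 and 48.3 CPM in samples 1 and 2 and 103.8 and 83.2 CPM in samples 3 and 4. Igfbp4 was also lower in samples 1 and 2, but WT_ASO spanned 1.25-fold for Igfbp4 against 4.21-fold for the stromal sum. KO_ASO 3 had a stromal sum above the WT_PBS range (1707 CPM), with Igfbp4 within its WT_PBS range (23.2 CPM). KO_PBS 2 had a stromal sum within the WT_PBS range (1370 CPM), with Igfbp6 above its WT_PBS range (23.4 CPM). Over the groups, the sum of 10 macrophage genes was 46.7 to 75.5 CPM in WT_PBS, 120.3 to 359 CPM in KO_PBS, 48.3 to 104 CPM in WT_ASO and 49.6 to 75.8 CPM in KO_ASO. All 10 macrophage genes passed as higher in KO_PBS vs WT_PBS and 7 as lower in KO_ASO vs KO_PBS. No gene of either list was at 0 in all samples, and the part of these cells in the Igfbp4 and Igfbp6 values was not tested. The 9 endothelial genes (0 called in either comparison) summed to 453 to 632 CPM in WT_PBS and 417 to 574 CPM in KO_PBS.

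**Figure D3:**
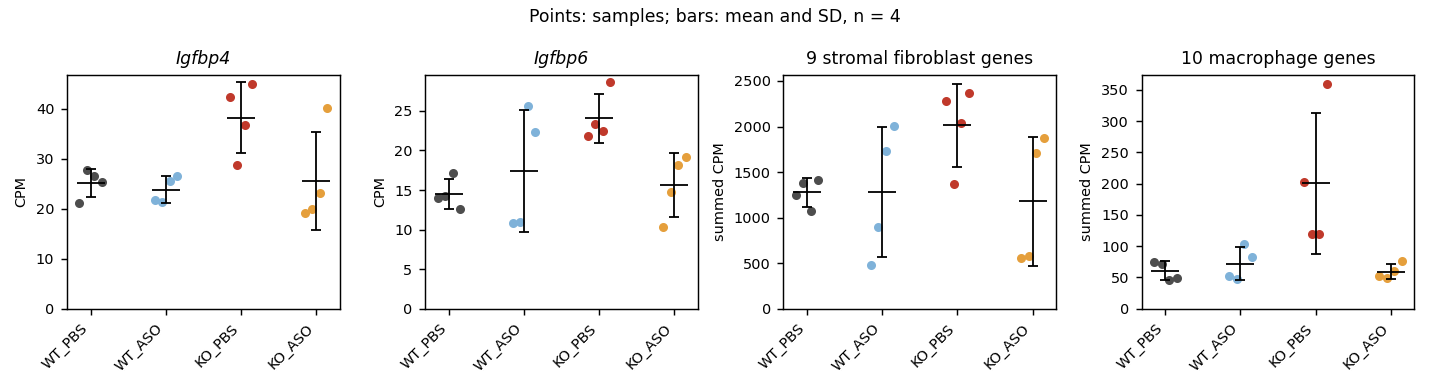
Igfbp4 and Igfbp6 (CPM) beside the summed CPM of 9 stromal fibroblast genes and 10 macrophage genes, with 1 point per sample and bars for the mean and SD (n = 4). All 4 panels have their highest group mean in KO_PBS, and Igfbp6, the stromal sum and the macrophage sum each split WT_ASO into 2 low and 2 high samples.

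Igfbp5 (ENSMUSG00000026185, chromosome 1, 72857932 to 72874884, minus strand), the binding protein with the highest level, measured 374 to 514 CPM in WT_PBS, 358 to 586 CPM in WT_ASO, 276 to 433 CPM in KO_PBS and 352 to 523 CPM in KO_ASO. All 4 ranges overlapped, and the log2FC in KO_PBS vs WT_PBS was -0.27 (SE 0.182, 95% interval -0.66 to 0.12, edgeR adjusted P value 0.367). It was -0.15 without KO_PBS 1 and -0.12 with library totals as the only scaling. Igfbp3 (ENSMUSG00000020427, chromosome 11, 7206086 to 7213923, minus strand), the main carrier of IGF in blood, measured 14.0 to 18.1 CPM in WT_PBS and 12.6 to 20.6 CPM in KO_PBS, with a log2FC of 0.07 (95% interval -0.38 to 0.52, edgeR adjusted P value 0.87). Igfbp7 (ENSMUSG00000036256, chromosome 5, 77349240 to 77408041, minus strand), found in vessel walls and matrix, measured 37.9 to 45.2 CPM in WT_PBS, 26.2 to 47.4 CPM in WT_ASO, 34.0 to 59.2 CPM in KO_PBS and 38.0 to 74.9 CPM in KO_ASO. Its log2FC was 0.27 in KO_PBS vs WT_PBS (95% interval -0.20 to 0.74, edgeR adjusted P value 0.463) and 0.54 in KO_ASO vs WT_ASO (95% interval 0.07 to 1.01, edgeR adjusted P value 0.276). The former ran from 0.17 to 0.42 on leaving out 1 sample and was 0.42 with library totals as the only scaling, and the latter was 0.30 without KO_ASO 4. Markers of vessel cells moved with the latter: 9 of 9 endothelial genes (median log2FC 0.27) and 4 of 5 mural genes (0.30), which mark the cells around vessels, had positive values in KO_ASO vs WT_ASO, with 0 called. The endothelial genes summed to 355 to 591 CPM in WT_ASO and 551 to 618 CPM in KO_ASO, and the mural genes to 416 to 618 CPM and 598 to 682 CPM. In KO_PBS vs WT_PBS the endothelial genes were negative in 9 of 9 (median -0.24), and of the mural genes Cspg4 passed as higher and Myh11 as lower. The part of these cells in the Igfbp7 values was not tested. An exon of Igfbp7 overlaps Polr2b on the opposite strand over 85 bases, and no source used here says whether the counting used the strand.

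**Figure D4:**
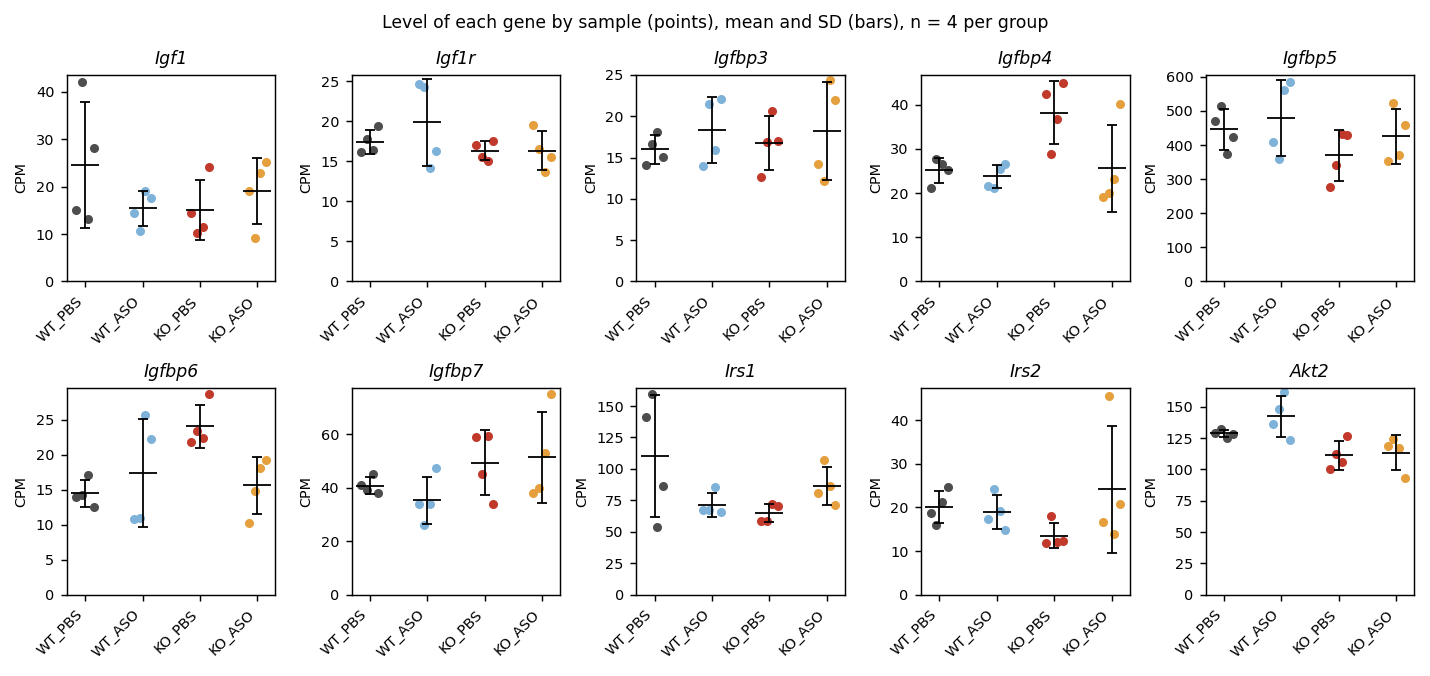
CPM of each of the 10 genes by group, with 1 point per sample and bars for the mean and SD (n = 4), on axes that start at 0. Igfbp4 and Igfbp6 separate KO_PBS from WT_PBS, single samples stand high for Igf1 (WT_PBS 2, 42.0 CPM) and Irs2 (KO_ASO 2, 45.6 CPM), and Akt2 is tight in WT_PBS (125 to 132 CPM).

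The ligand gene Igf1 (ENSMUSG00000020053, chromosome 10, 87858265 to 87937042, plus strand) measured 15.03, 42.0, 13.3 and 28.1 CPM in WT_PBS, 14.4, 10.7, 19.1 and 17.6 CPM in WT_ASO, 14.4, 10.1, 11.5 and 24.2 CPM in KO_PBS, and 19.1, 9.24, 22.8 and 25.1 CPM in KO_ASO. The highest and lowest of the 16 samples differed 4.55-fold, and the WT_PBS samples alone spanned 13.3 to 42.0 CPM. Its spread within groups (SD 0.606 on the log2 scale) was larger than that of 91.7% of tested genes, whose median was 0.234. The log2FC in KO_PBS vs WT_PBS was -0.70 (SE 0.389, 95% interval -1.54 to 0.13, edgeR adjusted P value 0.265). It was -0.32 without WT_PBS 2 (edgeR adjusted P value 0.658). The receptor gene Igf1r (ENSMUSG00000005533, chromosome 7, 67952827 to 68233668, plus strand) was steadier, at 16.1 to 19.3 CPM in WT_PBS, 14.1 to 24.6 CPM in WT_ASO, 15.04 to 17.5 CPM in KO_PBS and 13.7 to 19.5 CPM in KO_ASO. Its log2FC in KO_PBS vs WT_PBS was -0.09 (SE 0.156, 95% interval -0.42 to 0.24, edgeR adjusted P value 0.752).

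Irs1 (ENSMUSG00000055980, chromosome 1, 82233101 to 82291416, minus strand), the adaptor that links both the insulin and the IGF1 receptor to phosphoinositide 3-kinase, measured 141, 159, 54.0 and 86.8 CPM in WT_PBS and 59, 58.8, 72.0 and 70.4 CPM in KO_PBS. WT_ASO samples measured 67.4, 67.5, 85.3 and 65.5 CPM and KO_ASO samples 80.5, 107, 86.5 and 71.1 CPM. WT_PBS 1 and 2 stood above every other sample, while WT_PBS 3 was the lowest of all 16. The log2FC in KO_PBS vs WT_PBS was -0.76 (SE 0.246, 95% interval -1.28 to -0.24, edgeR adjusted P value 0.0553) and DESeq2 gave an adjusted P value of 0.0171. Without WT_PBS 3 it was -0.99 (edgeR adjusted P value 0.00322), and without WT_PBS 2 it was -0.53 (0.176). In WT_ASO vs WT_PBS, which shares the WT_PBS samples, the log2FC was -0.63 (SE 0.246, edgeR adjusted P value 0.736), and -0.39 without WT_PBS 2. The interaction was 1.03 (SE 0.347, 95% interval 0.29 to 1.77, edgeR adjusted P value 0.211), and it passed without WT_PBS 3 (1.26, edgeR adjusted P value 0.0373).

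Irs2 (ENSMUSG00000038894, chromosome 8, 10984681 to 11008458, minus strand), the other adaptor, measured 18.6, 15.9, 21.2 and 24.6 CPM in WT_PBS, 17.4, 24.3, 19.1 and 14.9 CPM in WT_ASO, 11.9, 17.96, 12.04 and 12.3 CPM in KO_PBS, and 16.6, 45.6, 13.8 and 20.7 CPM in KO_ASO. KO_ASO 2 was the highest of all 16 samples. The log2FC was -0.57 in KO_PBS vs WT_PBS (SE 0.302, 95% interval -1.21 to 0.07, edgeR adjusted P value 0.242) and 0.83 in KO_ASO vs KO_PBS (SE 0.302, 95% interval 0.19 to 1.48, edgeR adjusted P value 0.148). The latter was 0.32 without KO_ASO 2 (edgeR adjusted P value 0.486).

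Akt2 (ENSMUSG00000004056, chromosome 7, 27591552 to 27640826, plus strand), the AKT kinase tied to glucose uptake, measured 129, 132, 125 and 128 CPM in WT_PBS, 136, 148, 162 and 124 CPM in WT_ASO, 100.1, 112, 106 and 126 CPM in KO_PBS and 118, 124, 117 and 93.3 CPM in KO_ASO. All KO_ASO samples lay below all WT_PBS samples, and KO_PBS overlapped WT_PBS through KO_PBS 4. The log2FC was -0.21 in KO_PBS vs WT_PBS (SE 0.101, edgeR adjusted P value 0.189), -0.18 in KO_ASO vs WT_PBS (SE 0.101, edgeR adjusted P value 0.676) and -0.33 in KO_ASO vs WT_ASO (SE 0.101, 95% interval -0.54 to -0.11, edgeR adjusted P value 0.166). With library totals as the only scaling the first was -0.060 (edgeR adjusted P value 0.716), and without KO_ASO 4 the second was -0.099. Akt2 had the smallest spread of the 10 members (SD 0.144 on the log2 scale).

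Of the wider pathway, 56 further genes were listed and 51 tested. In KO_PBS vs WT_PBS 7 of the 51 passed, 3 higher and 4 lower, which is 13.7% beside the 12.6% of all genes. In KO_ASO vs KO_PBS 3 of 51 passed, 1 higher and 2 lower, which is 5.88% beside 3.64%. By edgeR 0 passed in the other 4 contrasts, with 5 at an unadjusted P value under 0.05 in WT_ASO vs WT_PBS (6.45% of all genes), 5 in KO_ASO vs WT_PBS (8.22%), 11 in KO_ASO vs WT_ASO (15.1%) and 9 for the interaction (12.7%). At the same unadjusted level 14 passed in KO_PBS vs WT_PBS (27.3% of all genes) and 12 in KO_ASO vs KO_PBS (17.7%). DESeq2 called 9 in KO_PBS vs WT_PBS (16.9% of all genes), 3 in KO_ASO vs KO_PBS (7.06%), 1 in WT_ASO vs WT_PBS (0.221%), 0 in KO_ASO vs WT_PBS (0.635%), 2 in KO_ASO vs WT_ASO (2.82%) and 2 for the interaction (2.57%). Of these, Stc2, an inhibitor of PAPP-A named after its values were seen, was the 1 gene called in WT_ASO vs WT_PBS and 1 of the 2 called in KO_ASO vs WT_ASO and for the interaction. It measured 2.02 to 2.87 CPM in WT_PBS, 3.86 to 8.04 CPM in WT_ASO, 1.84 to 3.30 CPM in KO_PBS and 2.11 to 3.26 CPM in KO_ASO, so that WT_ASO lay above the other groups without overlap. Its log2FC in WT_ASO vs WT_PBS was 1.21 (SE 0.237, edgeR adjusted P value 0.143, DESeq2 0.00148). The other DESeq2 calls that edgeR with the main settings did not make were Shc1, given with the adaptors, and Socs2 (log2FC -0.83, DESeq2 adjusted P value 0.0479) in KO_PBS vs WT_PBS, Inpp5k (-0.30, 0.0413) in KO_ASO vs WT_ASO and Igf2r (-0.33, 0.0384) for the interaction. The 6 tested adaptors and the 8 tested genes of phosphoinositide 3-kinase and AKT, among them Akt1, had 0 calls in any contrast by edgeR with the main settings. At an unadjusted P value under 0.05, 3 of those 6 adaptors and 0 of those 8 genes passed in KO_PBS vs WT_PBS (27.3% of all genes), and in KO_ASO vs KO_PBS 1 adaptor and 1 of the 8 did (17.7%). In the other 4 contrasts 0 to 1 adaptors and 0 to 2 of the 8 genes did. The adaptor Shc1, named after its values were seen, had a log2FC of 0.23 in KO_PBS vs WT_PBS (edgeR adjusted P value 0.057). It passed by DESeq2 (adjusted P value 0.0255), with library totals as the only scaling (log2FC 0.38, edgeR adjusted P value 0.00357) and without WT_ASO 3 (0.0489). DESeq2 called no other adaptor and 0 of the 8 genes in any contrast. The median log2FC of the 51 genes was -0.023 in KO_PBS vs WT_PBS and 0.054 in KO_ASO vs KO_PBS.

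**Figure D5:**
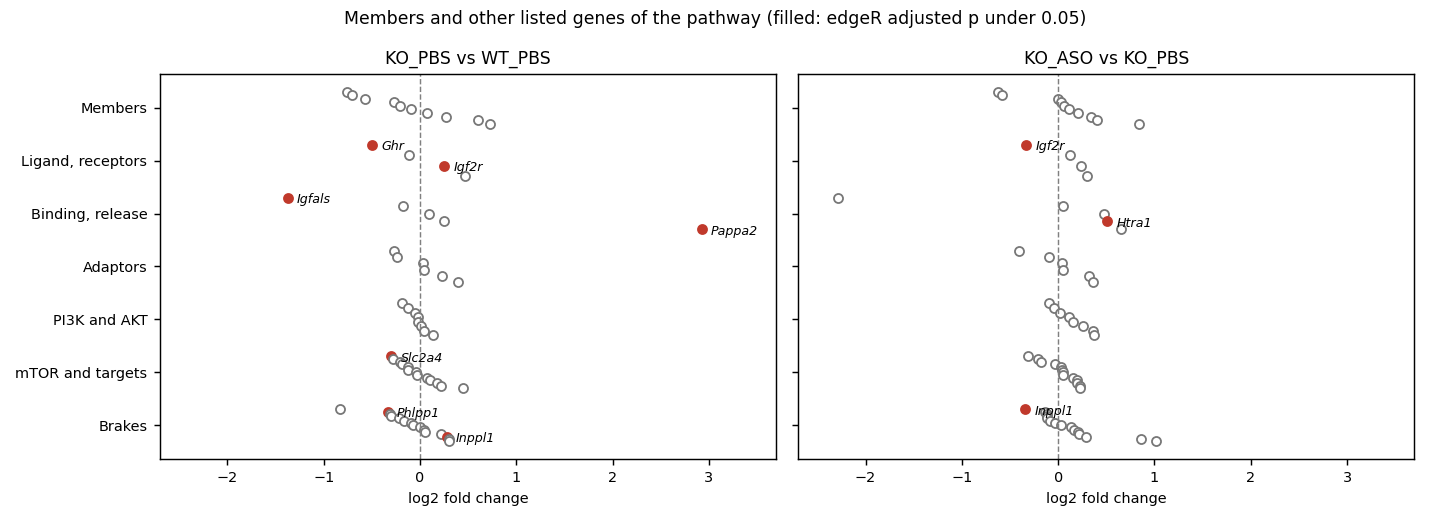
log2 fold changes of the members and of the other listed pathway genes, by role, in KO_PBS vs WT_PBS and KO_ASO vs KO_PBS, with 1 point per gene and filled points for an edgeR adjusted P value under 0.05. Igf2r and Inppl1 are filled in both panels, on opposite sides of 0, and no member is filled.

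Among receptors, Igf2r, which clears IGF2 to lysosomes, measured 94.5 to 109 CPM in WT_PBS, 108.6 to 127 CPM in KO_PBS and 86.6 to 97.4 CPM in KO_ASO. It was higher in KO_PBS than in WT_PBS by a log2FC of 0.25 (SE 0.0724, edgeR adjusted P value 0.0318) and lower in KO_ASO than in KO_PBS, at -0.33 (SE 0.0724, edgeR adjusted P value 0.0192). The first call was lost without WT_PBS 1, 3 or 4 or KO_PBS 1 or 4 (adjusted P value 0.0641 to 0.104), and the second without KO_PBS 1 (0.0657) or KO_ASO 2 (0.0546). Without the filter the first was lost (0.101), and on the compared groups alone both were (0.0527 and 0.0606). Ghr, the growth hormone receptor that drives Igf1 in liver and other tissues, was lower in KO_PBS, at 86.3 to 115 CPM against 122 to 160.4 CPM in WT_PBS (log2FC -0.50, SE 0.133, edgeR adjusted P value 0.0225). That call was lost without WT_PBS 2 (0.0707), WT_PBS 4 (0.0596), KO_PBS 1 (0.0837) or KO_PBS 3 (0.0583), and with library totals as the only scaling (log2FC -0.35, 0.0823). Igf2 had a log2FC of 0.47 in KO_PBS vs WT_PBS (SE 0.456, edgeR adjusted P value 0.554).

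Among genes that hold or release IGF, Igfals, the subunit that stabilises IGF with IGFBP3 in blood, was lower in KO_PBS (log2FC -1.37, SE 0.4, edgeR adjusted P value 0.0343), with 22 to 86 counts against 86 to 205 counts in WT_PBS. Pappa2, a protease that cuts binding proteins, was higher in KO_PBS (log2FC 2.93, SE 0.854, edgeR adjusted P value 0.0341), with 11, 47, 10 and 16 counts against 4, 0, 2 and 4 counts in WT_PBS. These are few counts, and the Pappa2 call was lost without KO_PBS 2 (adjusted P value 0.127) or any 1 of the 4 WT_PBS samples (0.0522 to 0.0845). The Igfals call was lost without WT_PBS 2, 3 or 4 or KO_PBS 1, 3 or 4 (0.0512 to 0.0931), and without the filter both calls were lost (Igfals 0.0925, Pappa2 0.0589). With the replicate number as a block the Pappa2 call was lost too (0.058). Outside KO_PBS the Pappa2 counts were 0 to 7 but for WT_ASO 4 (13), so it passed the filter mainly through the group where it was high. On the compared groups alone Pappa2 did not pass the filter and was not tested. Htra1, a secreted protease, was higher in KO_ASO than in KO_PBS, at 21.3 to 29.98 CPM against 13.9 to 18.7 CPM (log2FC 0.51, SE 0.132, edgeR adjusted P value 0.042). That call was lost on leaving out any of 10 of the 16 samples, namely WT_PBS 1, 2 or 4, WT_ASO 1, KO_PBS 1, 2 or 4, or KO_ASO 1, 2 or 3 (0.0506 to 0.159). It was also lost with library totals as the only scaling (log2FC 0.41, 0.0645) and on the compared groups alone (0.0771).

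Downstream, Slc2a4, which encodes GLUT4, was lower in KO_PBS, at 539 to 586 CPM against 637 to 734 CPM in WT_PBS (log2FC -0.30, SE 0.0922, edgeR adjusted P value 0.0448). Phlpp1, a phosphatase that acts on AKT, was lower in KO_PBS (log2FC -0.33, SE 0.103, edgeR adjusted P value 0.0418). Inppl1, the lipid phosphatase SHIP2 that opposes phosphoinositide 3-kinase, measured 222 to 259 CPM in WT_PBS, 250.3 to 318 CPM in KO_PBS and 219 to 233 CPM in KO_ASO. It was higher in KO_PBS than in WT_PBS (log2FC 0.28, SE 0.0875, edgeR adjusted P value 0.0483) and lower in KO_ASO than in KO_PBS (log2FC -0.34, SE 0.0876, edgeR adjusted P value 0.0406). With library totals as the only scaling, the log2FC was -0.15 for Slc2a4 (edgeR adjusted P value 0.278) and -0.18 for Phlpp1 (0.274), and both calls were lost. Leaving out 1 sample ended the Slc2a4 call in 9 of 16 cases (WT_PBS 1, 3 or 4, any KO_PBS sample, KO_ASO 2 or 3, adjusted P value 0.0618 to 0.112). It ended the Phlpp1 call in 9 of 16 (WT_PBS 2, 3 or 4, KO_PBS 1, 3 or 4, KO_ASO 1, 2 or 3, 0.05 to 0.154). For Inppl1 it ended the first call in 13 of 16, all but WT_PBS 3, WT_ASO 3 and KO_PBS 4 (0.0504 to 0.173), and the second in 9 of 16 (WT_PBS 1, WT_ASO 1, KO_PBS 1, 2 or 3, any KO_ASO sample, 0.0505 to 0.149). The first Inppl1 call was also lost with RLE size factors (0.0501), without the filter (0.0984) and on the compared groups alone (0.0805), and the second without the filter (0.0551) and on the compared groups alone (0.0784). Without the filter Slc2a4 (0.0779) and Phlpp1 (0.0868) were lost too, as was Phlpp1 on the compared groups alone (0.0551).

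Patterns over the 16 samples were compared by the root mean square distance between standardised log2 CPM profiles, where a smaller value is a closer pattern. The closest pair of members was Igfbp4 and Igfbp6 at 0.738, followed by Igfbp4 and Igfbp7 at 0.963 and Igfbp5 and Irs1 at 0.997. These distances are descriptions over samples that share groups and library composition.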

How the data were processed

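Total RNA from the tibialis anterior had been isolated with TRI Reagent and sequenced after stranded mRNA library preparation. A table of raw, whole-number counts by Ensembl gene was deposited, in 16 sample columns and without normalisation. Listed in the submitters' processing notes, with no role, are HTSeq 0.6.1p1, STAR 2.5.3a, Bowtie2 2.2.8 and cutadapt 1.10, and the build GRCm38 (mm10). The annotation release and strand setting of the counting were not given in the sources used here. An accompanying article covers another mouse model and served for style only.

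From these counts, edgeR 4.0.16 under R 4.3.3 was run with filterByExpr by group (14960 genes tested, 14770 left out), TMM scaling and a quasi-likelihood fit (robust) of 4 group means to all 16 samples. Biological variation was 18.7% (common coefficient). Adjustment of P values was by Benjamini-Hochberg over all tested genes, with a threshold of 0.05. SE is the size of the log2FC over the square root of F, and intervals are 95%. CPM uses TMM-scaled totals, and log2 CPM a prior count of 2. DESeq2 1.42.0 and other settings were alternatives. The code was tested on simulated data.

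The members, the pathway genes and the marker lists were chosen with earlier results of these data known. Named were all members, Bin1, Dnm2, Igf2 and, per comparison and direction, up to 4 called pathway genes of smallest P value. Outside this rule, some of the pathway genes called by DESeq2 or under another edgeR setting alone (Shc1, Sos1, Socs2, Stc2, Inpp5k) were named after their values were seen. Further genes named by likeness of pattern were chosen after their values were seen. No 2 samples of a group looked like 1 library (lowest chi-square per gene 22.2). Each sample was taken as 1 mouse. The labels number the samples and do not say so outright, and P values then measure the spread between samples. Irs4 was not analysed here, and Igfbp1, Igfbp2, Igfbpl1 and Pappa did not pass the filter. Upstream sequences came from RefSeq (GRCm38.p6), matched by symbol for all 10 members.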

Additional observations from a re-analysis of the deposited data

Results flagged for a closer look

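Of 72 groups of 4 samples examined (10 members and 8 called pathway genes in 4 groups), 4 had a sample set apart by a gap that chance gives in about 5% of groups (1 in 20), that is in about 3.6 of 72. Irs1 in WT_ASO had a highest value of 85.3 CPM (sample 3) over 65.5 to 67.5 CPM in the others. Irs2 in KO_PBS had a highest value of 18 CPM (sample 2) over 11.9 to 12.4 CPM. Inppl1 in WT_ASO had a highest value of 254 CPM (sample 3) over 212 to 217 CPM. Pappa2 in KO_PBS had a highest value of 1.33 CPM (sample 2) over 0.244 to 0.394 CPM. The number found is close to that expected by chance.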

How the results depend on the processing

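The number of members called in KO_PBS vs WT_PBS was 0 with TMM, with RLE size factors and without the filter, 2 with library totals only, 2 on the compared groups alone, 3 by DESeq2, and 0 to 1 on leaving out 1 sample. The ASO1 comparison within the knockout and the interaction gave 0 to 1 on leaving out 1 sample. With library totals only, the median log2FC of all genes in KO_PBS vs WT_PBS moved to 0.139. The call counts over all genes also moved in KO_ASO vs KO_PBS, from 544 to 300 on the compared groups alone and 1056 by DESeq2. DESeq2 called 33 against 1 gene in WT_ASO vs WT_PBS, 95 against 6 in KO_ASO vs WT_PBS, 422 against 11 in KO_ASO vs WT_ASO and 385 against 86 for the interaction. In KO_ASO vs WT_ASO the 11 calls became 6 with RLE size factors, 2 on the compared groups alone and 44 with the block, and the 1 call in WT_ASO vs WT_PBS became 3 without the filter and 2 with the block. On leaving out 1 sample, calls over all genes ran from 997 to 2137 in KO_PBS vs WT_PBS, 208 to 831 in KO_ASO vs KO_PBS, 1 to 4 in WT_ASO vs WT_PBS, 4 to 11 in KO_ASO vs WT_PBS, 2 to 19 in KO_ASO vs WT_ASO and 23 to 102 for the interaction.

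The labels do not say that a replicate number marks a shared litter, batch or day, and the numbers were not taken as a pairing, for which every same-numbered pair would have had to correlate over 0.1. Of 24 such pairs 11 did (-0.0777 to 0.435). In 15 of 24 comparisons of a sample with the 4 samples of another group, its own number correlated best. A random choice would give 1 in 4. The excess is a hint from the data and not from the design. With the replicate number as a block, 2 members were called in KO_PBS vs WT_PBS (Igfbp4, adjusted P value 0.03, and Igfbp6, 0.0306) and 1 in KO_ASO vs KO_PBS (Igfbp4, 0.0499). The block turned the log2FC to -0.0089 for Igf1r in KO_ASO vs KO_PBS and to -0.027 for Igfbp4 in KO_ASO vs WT_PBS. Among adaptors it called Shc1 in KO_PBS vs WT_PBS (0.039) and Sos1 in KO_ASO vs KO_PBS (0.0463), and it ended the calls of Pappa2 (0.058) and Htra1 (0.0528).

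Directions that turned belonged to uncalled differences, and the cause was not tested. With library totals only, log2FC became 0.058 for Igf1r in KO_PBS vs WT_PBS, -0.094 for Igf1r, -0.028 for Igfbp7 and -0.066 for Akt2 in KO_ASO vs KO_PBS, 0.00024 for Igfbp5 in KO_ASO vs WT_PBS and 0.090 for Igfbp3 in KO_ASO vs WT_ASO. Without the filter, Igf1r became -0.0059 in KO_ASO vs KO_PBS. On leaving out 1 sample, the knockout log2FC of Igfbp3 ran from -0.052 to 0.19. In KO_ASO vs KO_PBS it ran from -0.095 to 0.076 for Igf1r, -0.065 to 0.26 for Igfbp3, -0.18 to 0.18 for Igfbp7 and -0.027 to 0.11 for Akt2. In WT_ASO vs WT_PBS it ran from -0.0084 to 0.22 for Igfbp5 and -0.23 to 0.027 for Irs2. In KO_ASO vs WT_PBS it ran from -0.57 to 0.019 for Igf1, -0.28 to 0.14 for Igfbp4, -0.19 to 0.015 for Igfbp5, -0.0087 to 0.26 for Igfbp6 and -0.25 to 0.46 for Irs2. In KO_ASO vs WT_ASO it ran from -0.18 to 0.14 for Igfbp3, -0.20 to 0.22 for Igfbp4, -0.33 to 0.085 for Igfbp6 and -0.15 to 0.55 for Irs2. For the interaction it ran from -0.25 to 0.070 for Igfbp3 and -0.015 to 0.21 for Igfbp5. Of the members' log2FC values, 331 under other settings and 915 on leaving out 1 sample kept direction and side of the threshold, 10 and 9 became calls, and 9 and 36 changed direction. The 10 pathway calls were kept in 39 and lost in 20 values under other settings, and kept in 88 and lost in 72 on leaving out 1 sample. Pappa2 had no value on the compared groups alone. With the longest transcript as length, 4 of 10 levels moved by more than 1 SD. With 4 samples a group, precision was limited most for Igf1, whose 95% interval in the knockout comparison ran from -1.54 to 0.13.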

Other observations

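Genes other than the members whose standardised profiles over the 16 samples lay nearest to a member were looked up after the values were seen. For Igfbp4 they were Tcaf1 (distance 0.374), Gltp (0.383) and Fstl1 (0.401), the last a secreted glycoprotein of connective tissue. For Igfbp6 they were Cyp4f18 (0.429), Plod3 (0.462), an enzyme of collagen lysine modification, and Gm2a (0.468). For Igfbp7 they were Nid2 (0.286) and Lamb1 (0.395), both basement membrane components, and Tril (0.402). For Akt2 they were Unc45b (0.303), a myosin chaperone of muscle, Prmt7 (0.308) and Krba1 (0.365). The nearest genes of Igf1 (Clic5, 0.644) and Irs2 (Mbd2, 0.668) were farther away. For the remaining members the nearest were Aldh6a1 (0.448, Igf1r), Cdkn1c (0.579, Igfbp3), Gm49284 (0.584, Igfbp5) and Gm49768 (0.585, Irs1). What a gene encodes is given for some of these genes only. With 14960 genes some profile will lie near any member.

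Spread within groups also differed between members. It was 0.45 for Irs2, 0.408 for Igfbp6, 0.395 for Irs1, 0.347 for Igfbp7, 0.336 for Igfbp3, 0.307 for Igfbp4, 0.286 for Igfbp5 and 0.242 for Igf1r (SD of log2 CPM). For Irs1 the WT_PBS group had 0.712 and the KO_PBS group 0.158. For Irs2 the KO_ASO group had 0.756 and the other groups 0.266 to 0.295.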
